A study of Mus musculus with 7 samples.

Results

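Serpins are a family of proteins, named after serine protease inhibitors, that share a fold with an exposed reactive centre loop. An inhibitory serpin offers the loop as bait, is cut once by the protease and traps it in a covalent complex, so each molecule is used up with its target. Other members have lost inhibition and work as hormone carriers or as a collagen chaperone. The family is divided into clades, named by the letter after Serpin in the gene symbol. In mice, clade A and clade B have expanded into arrays of related copies. The kidney itself is a known site of plasmin and plasminogen activator chemistry, and many clade A serpins are mainly liver products secreted into plasma.

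The members described here are all genes of the deposited count table that are annotated as protein-coding and have a symbol beginning with Serpin, 61 of 42256 genes in the table and of 21421 protein-coding ones. Membership followed the annotation only, but the family was chosen with earlier results of these data known. A further 7 Serpin genes of the table are annotated as pseudogenes or polymorphic pseudogenes and are not members.

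Whole-kidney RNA was sequenced from 4 CDH11-/- and 3 CDH11+/+ adult male mice of a mixed 129S1/Sv and C57BL/6 background. CDH11 is cadherin-11, an adhesion protein of mesenchymal cells. Mice of both genotypes had 1 kidney removed and received angiotensin II from an implanted pump at 800 ng/kg/min, a hypertensive injury model, until they were killed 4 weeks after surgery. No library came from an uninjured mouse, so a difference that preceded the injury and a different response to it cannot be told apart. How the knockout allele was made is not given in the sources used here.

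Total counts ranged from 72087906 to 84786351 per library. Cdh11 transcripts were not lower in the libraries labelled CDH11-/-, and the groups overlapped. The knockout-labelled libraries 1 to 4 had 11.3, 9.56, 11.6 and 10.98 Cdh11 CPM (counts scaled to library size), and those labelled wild type, libraries 1 to 3, had 6.79, 4.52 and 10.8 CPM, a log2 fold change of 0.56 (SE 0.25, adjusted p = 0.140 by edgeR's quasi-likelihood test). Every direction below is therefore that of libraries labelled CDH11-/- over libraries labelled CDH11+/+, and the labels alone define the groups. The kidney label was checked against defining transcripts: 10 of 10 proximal tubule markers passed the filter on low counts, and 5 of 6 exocrine pancreas markers were at 0 in all 7 libraries. Summed proximal tubule markers lay between 13964 and 15721 CPM in the CDH11-/- group and between 9348 and 10705 CPM in the CDH11+/+ group, with 6 of 10 called higher and 1 lower. Endothelial markers summed to 390 to 465 CPM in CDH11-/- libraries against 502 to 646 CPM in CDH11+/+ libraries (0 higher and 4 lower of 9), and podocyte markers to 261 to 381 CPM in CDH11-/- libraries against 420 to 518 CPM in CDH11+/+ libraries (0 higher and 5 lower of 6). Over all tested genes 16.8% were called higher and 12.9% lower, with calls defined below. In bulk tissue, fewer cells of a type and less RNA per cell cannot be told apart.

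Of the 61 Serpin genes, 27 passed the filter and were tested, and 9 of these (33.3%) were called, meaning an adjusted p under 0.05 after Benjamini-Hochberg correction over all 17964 genes tested. The share called among all tested genes was 29.7%, so the family's share lies near the background. In the CDH11-/- libraries 3 members were higher (Serpinf2, Serpina1d and Serpina1a), where 16.8% of all tested genes were called higher. A further 6 were lower (Serpina6, Serpinb6a, Serpinb6b, Serpinb8, Serpinb9 and Serpinh1), where the background was 12.9%. Without CDH11-/- library 3, or without any 1 of the CDH11+/+ libraries, Serpinf2 was the 1 member called higher. The CPM values of the groups did not overlap for these 9 members and for none of the other 18, against 38.5% of all tested genes. Of these 9, 3 were higher, where 21.9% of all tested genes did not overlap and were higher, and 6 were lower, where that share was 16.6%. For Serpina1d the separation rested on the scaling to library size. CDH11-/- library 4 had 51 counts (0.64 CPM) and CDH11+/+ library 3 had 53 counts (0.61 CPM). The median log2 fold change of the 27 tested members was -0.23, and that of all tested genes -0.014.

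**Figure D1:**
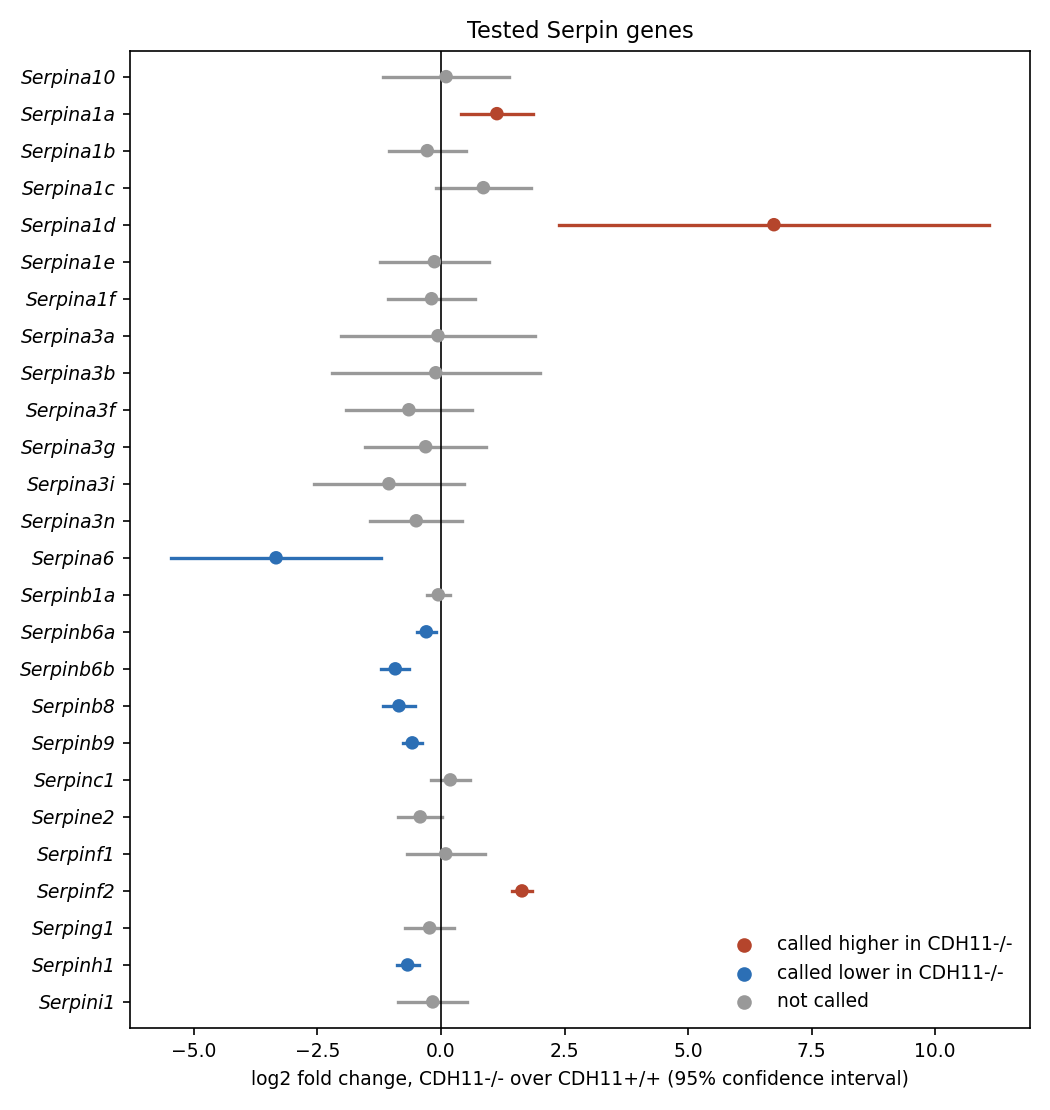
Log2 fold change of CDH11-/- over CDH11+/+ libraries for 26 of the 27 tested Serpin genes, in alphabetical order from the top, with 95% confidence intervals as lines. Red points were called higher, blue points lower, and grey points were not called. Serpinf2 at 1.64 has a narrow interval, while Serpina1d at 6.74 has the widest interval of the 26.

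By clade, 14 of 24 clade A members were tested, with 2 called higher, 1 lower and 11 not called. Of 26 clade B members 5 were tested, with 4 called lower, none higher and 1 not called. Clade F had 1 of 2 tested members called higher, and the lone clade H member was called lower. The tested members of clades C, E, G and I (1, 2, 1 and 1 genes) were not called. The 34 members that did not pass the filter included 19 with no count in any library, 13 of them in clade B. The other 15 had at most 12 counts in a library. Of these, 2 reached 10 counts anywhere. Serpinb5 (maspin, a non-inhibitory serpin of epithelia) had 1, 3, 10 and 0 counts in the CDH11-/- libraries, against 7, 6 and 3 in the CDH11+/+ libraries. Serpind1, heparin cofactor II, a thrombin inhibitor, had 6, 2, 6 and 0 counts in the CDH11-/- libraries, against 3, 1 and 12 in the CDH11+/+ libraries. Serpina7, thyroxine-binding globulin, a hormone carrier, was picked out after its values were seen. It had 1, 0, 2 and 3 counts in the CDH11-/- libraries, against 7, 7 and 7 in the CDH11+/+ libraries, without overlap, and was not tested.

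Counts of all 61 members together came to 583, 472, 504 and 439 CPM in CDH11-/- libraries 1 to 4, against 415, 329 and 418 CPM in CDH11+/+ libraries 1 to 3. The groups did not overlap in this sum. Serpinf2 took 36.5 to 49.8% of the family's counts in the CDH11-/- libraries and 16.6 to 19.4% in the CDH11+/+ libraries. Without Serpinf2 the sums were 223 to 370 CPM in CDH11-/- libraries against 265 to 348 CPM in CDH11+/+ libraries and overlapped. Serpinh1 took 11.6 to 15.1% of the family's counts in the CDH11-/- libraries and 26.8 to 30.4% in the CDH11+/+ libraries. Scaled to exon length, the highest mean level in the CDH11-/- libraries was that of Serpinf2 (95.3 CPM per kb), followed by Serpina1d (29.9), Serpinh1 (27.7), Serpina1f (14.6) and Serping1 (13.2). In the CDH11+/+ libraries Serpinh1 led with 44.2 CPM per kb, followed by Serpinf2 (30.6), Serpina1f (16.7) and Serping1 (15.4), and Serpina1d stood at 0.27.

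**Figure D2:**
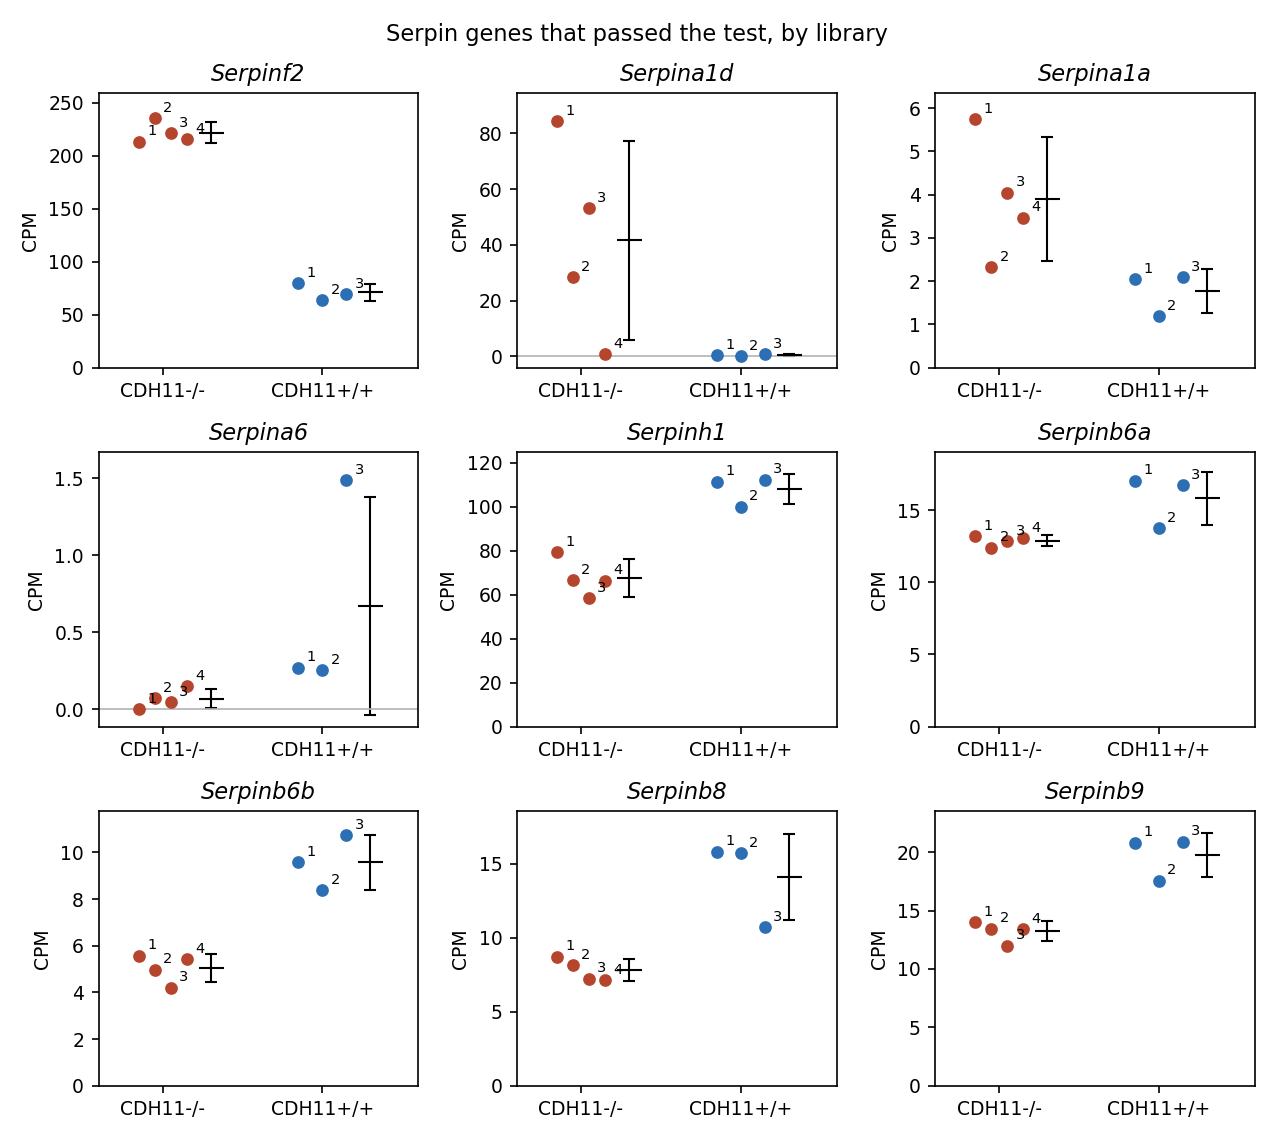
CPM by library for the 9 Serpin genes that passed the test. Points are libraries, numbered by replicate, with CDH11-/- in red on the left and CDH11+/+ in blue on the right; black bars give the mean and SD (n = 4 and n = 3). Serpinf2 lies between 213 and 235 CPM in the CDH11-/- libraries and between 63.9 and 79.8 CPM in the CDH11+/+ libraries, while Serpina1d is high in CDH11-/- libraries 1, 2 and 3 but not in library 4.

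Among the serpins of plasmin and coagulation, Serpinf2 was higher. Serpinf2 encodes alpha-2-antiplasmin, the main fast inhibitor of plasmin, the protease that dissolves fibrin. The gene (ENSMUSG00000038224) lies on mm10 chromosome 11 from 75431732 to 75439591, on the minus strand. It had 213, 235, 221 and 216 CPM in CDH11-/- libraries 1 to 4, against 79.8, 63.9 and 69.5 CPM in CDH11+/+ libraries 1 to 3. All 4 CDH11-/- libraries stood far above all 3 CDH11+/+ libraries, and the spread within each group was small beside the gap. The means were 221 ± 9.88 CPM in CDH11-/- (SD, n = 4) and 71.1 ± 8.06 CPM in CDH11+/+ libraries (SD, n = 3), a 3.12-fold difference with a log2 fold change of 1.64 (SE 0.086, 95% interval 1.45 to 1.83, adjusted p = 1.5e-05). It was called in 17 of 17 alternative analyses. The proximal tubule markers given above moved in the same direction. Of 12 hepatocyte markers 9 were tested, 0 were called higher and 2 lower, where the shares over all tested genes were 16.8% and 12.9%. The sums of the hepatocyte markers were 24.5 to 92.7 CPM in the CDH11-/- group and 63.3 to 99.6 CPM in the CDH11+/+ group. The part of either marker list in the Serpinf2 result was not tested.

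Serpinf1, the neighbour of Serpinf2 on the same strand and the only other clade F gene, was not called. It encodes pigment epithelium-derived factor, a secreted serpin without inhibitory activity. Its means were 1.04 ± 0.36 CPM (SD, n = 4) in CDH11-/- and 0.98 ± 0.38 CPM (SD, n = 3) in CDH11+/+ libraries, a log2 fold change of 0.10 (95% interval -0.69 to 0.89).

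Serpine2, Serpinc1, Serpina10 and Serpini1, which act on plasminogen activators and clotting proteases, were not called. Serpine2, protease nexin-1, which inhibits thrombin and urokinase, had 16.7, 12.2, 10.5 and 11.95 CPM in CDH11-/- libraries 1 to 4, against 21.5, 16.9 and 13.3 CPM in CDH11+/+ libraries 1 to 3. The ranges overlapped, and the log2 fold change was -0.42 (SE 0.19, adjusted p = 0.143). Without CDH11-/- library 1 Serpine2 was called lower (-0.57, adjusted p = 0.0371). Serpinc1, antithrombin, averaged 2.76 ± 0.54 CPM (SD, n = 4) in CDH11-/- and 2.42 ± 0.27 CPM (SD, n = 3) in CDH11+/+ libraries, a log2 fold change of 0.19 (95% interval -0.21 to 0.59). Serpina10, the protein Z-dependent protease inhibitor, which inhibits factor Xa, ran from 2.09 to 9.50 CPM in CDH11-/- and from 2.93 to 6.35 CPM in CDH11+/+ libraries (log2 fold change 0.10, 95% interval -1.18 to 1.39). Serpini1, neuroserpin, an inhibitor of tissue plasminogen activator known from neurons, had a log2 fold change of -0.17 (95% interval -0.86 to 0.53).

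Of the 11 coagulation and fibrinolysis proteases listed, 10 matched the table and 5 passed the filter. Of these 5, 2 were called higher and 1 lower, where the shares over all tested genes were 16.8% and 12.9%. The 5 log2 fold changes had a median of 0.60. Proc, which encodes protein C, had 74.7, 80.3, 78.0 and 65.1 CPM in CDH11-/- libraries 1 to 4, against 43.6, 46.2 and 42.6 CPM in CDH11+/+ libraries 1 to 3 (0.76, adjusted p = 0.000268). Plg, which encodes plasminogen, the precursor of the Serpinf2 target, was also higher, at a low level of 0.15 to 0.31 CPM in CDH11-/- libraries against 0.014 to 0.067 CPM in CDH11+/+ libraries (2.43, adjusted p = 0.0090). Plat, which encodes tissue plasminogen activator, was lower, at 25.5 to 37.9 CPM in CDH11-/- libraries against 39.2 to 48.7 CPM in CDH11+/+ libraries (-0.53, adjusted p = 0.0225). Plau, which encodes urokinase and was chosen for mention after its values were seen, had 307 to 407 CPM in CDH11-/- libraries against 162 to 281 CPM in CDH11+/+ libraries and did not pass the test (0.60, adjusted p = 0.0554).

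Of the 14 listed cofactors, binding partners and clearance receptors of serpins, 13 were tested, 4 were called higher and 2 lower, with a median of -0.056. Among all tested genes 29.7% were called. Proz, which encodes protein Z, the cofactor of Serpina10, had 5.26, 7.001, 5.79 and 4.75 CPM in the CDH11-/- libraries, against 0.82, 0.66 and 1.38 CPM in the CDH11+/+ libraries (2.57, SE 0.26, adjusted p = 0.000247). Lrpap1, which encodes the chaperone of the LDL receptor-related proteins that clear protease and serpin complexes, was higher at 255 to 275 CPM in CDH11-/- libraries against 141 to 170 CPM in CDH11+/+ libraries (0.81, adjusted p = 0.000223). Thbd, which encodes thrombomodulin, was lower at 25.5 to 37.7 CPM in CDH11-/- libraries against 48.2 to 52.7 CPM in CDH11+/+ libraries (-0.68, adjusted p = 0.0032). Sdc4, which encodes a heparan sulfate proteoglycan of the cell surface, was lower at 238 to 258 CPM in CDH11-/- libraries against 295 to 351 CPM in CDH11+/+ libraries (-0.41, adjusted p = 0.0034). The groups did not overlap for any of these 4 genes. Thbd moved with the endothelial markers given above, whose part in it was not tested.

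**Figure D3:**
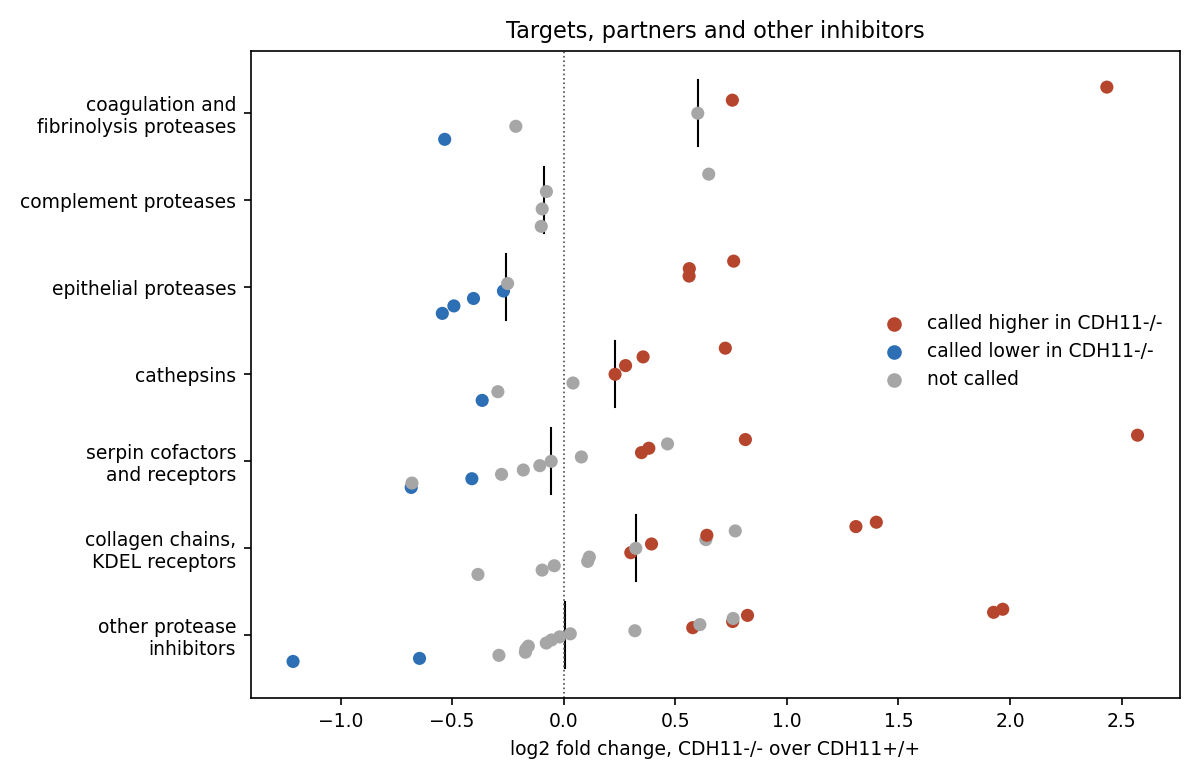
Log2 fold change of CDH11-/- over CDH11+/+ libraries for the tested genes of the lists of serpin targets, partners and other inhibitors. Red points were called higher, blue lower and grey not called, and the black bar is each list's median. Medians run from -0.26 for epithelial proteases to 0.60 for coagulation and fibrinolysis proteases, and Proz at 2.57 and Plg at 2.43 lie farthest to the right.

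The alpha-1-antitrypsin copies on chromosome 12 were uneven among the CDH11-/- libraries. Alpha-1-antitrypsin is a plasma inhibitor of neutrophil elastase; humans have a single gene for it, and laboratory mice carry several. Serpina1a to Serpina1e are near copies: over their coding sequences the 10 pairs were 96.3 to 98.5% identical, whereas Serpina1f matched them at 53.3 to 54.1% and is a distant relative. Reads from near copies can be assigned to the wrong copy, so values of single copies are uncertain. The annotated span of Serpina1b (103728156 to 103830373, minus strand) also contains the whole span of Serpina1d (103763594 to 103773592, minus strand). The reactive centre loop sets which proteases a serpin binds. In the 60 bases below, from the part that encodes the reactive centre loop (bases 1101 to 1160 of the 1242-base coding sequence, 1170 to 1229 of 1311 in Serpina1a; GENCODE transcripts on GRCm38), capitals mark positions at which the 5 copies are not all the same. These are 18 of 60 positions, against 86 of 1242 (6.92%) over the aligned coding sequence. Each line reads 5′ to 3′ on the coding strand.
Serpina1a: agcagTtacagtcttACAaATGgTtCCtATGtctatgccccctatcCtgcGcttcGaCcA
Serpina1b: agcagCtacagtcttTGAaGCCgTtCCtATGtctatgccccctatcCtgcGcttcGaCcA
Serpina1c: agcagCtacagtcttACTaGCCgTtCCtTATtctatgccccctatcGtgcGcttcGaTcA
Serpina1d: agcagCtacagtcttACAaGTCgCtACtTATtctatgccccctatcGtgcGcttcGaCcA
Serpina1e: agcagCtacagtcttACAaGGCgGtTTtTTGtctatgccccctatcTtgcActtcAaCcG
In this stretch Serpina1d differs from Serpina1a at 9 bases, from Serpina1b at 9, from Serpina1c at 5 and from Serpina1e at 10, which are the differences a read needs to tell the copies apart here.

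Serpina1d (ENSMUSG00000071177) had 84.6, 28.4, 53.3 and 0.64 CPM in CDH11-/- libraries 1 to 4, against 0.44, 0.094 and 0.61 CPM in CDH11+/+ libraries 1 to 3. Libraries 1, 2 and 3 of the CDH11-/- group were high, and library 4 stood just above the highest CDH11+/+ library. The log2 fold change was 6.74 (SE 1.77, 95% interval 2.39 to 11.1, adjusted p = 0.0351), and the SD of the CDH11-/- group was close to its mean (41.7 ± 35.8 CPM, SD, n = 4, against 0.38 ± 0.26 CPM in CDH11+/+ libraries, SD, n = 3). The call was kept in 8 of 17 alternatives; it was lost when any 1 library other than CDH11-/- library 4 was left out (adjusted p = 0.0517 to 0.123). It was also lost with limma-voom (adjusted p = 0.427), without a filter (0.0720) and with limma-trend on the normalized values (0.0612).

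Serpina1a (ENSMUSG00000066366, chromosome 12, 103853589 to 103863562, minus strand) had 5.75, 2.32, 4.05 and 3.47 CPM in CDH11-/- libraries 1 to 4, against 2.06, 1.19 and 2.09 CPM in CDH11+/+ libraries 1 to 3. The groups were separated by a narrow gap. The log2 fold change was 1.13 (SE 0.32, adjusted p = 0.0284), and the call was lost without CDH11-/- library 3 (adjusted p = 0.0649) and without CDH11+/+ library 1, 2 or 3 (0.0662, 0.0836 and 0.0528). Serpina1b (-0.28, adjusted p = 0.571), Serpina1c (0.86, 0.163) and Serpina1e (-0.13, 0.862) were not called. Serpina1f, not called either, had 73.6, 32.7, 49.1 and 30.8 CPM in CDH11-/- libraries, against 56.0, 35.9 and 67.4 CPM in CDH11+/+ libraries (-0.19, 95% interval -1.07 to 0.69, adjusted p = 0.733), and the ranges overlapped.

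Summed over Serpina1a to Serpina1e, which does not depend on how reads were divided among those copies, the CDH11-/- libraries had 98.4, 35.1, 65.1 and 13.1 CPM and the CDH11+/+ libraries 9.89, 6.15 and 13.9 CPM. CDH11-/- library 4 lay inside the CDH11+/+ range, so the groups overlapped. The means were 52.9 ± 37.1 CPM in CDH11-/- (SD, n = 4) and 9.99 ± 3.88 CPM in CDH11+/+ libraries (SD, n = 3), and the log2 fold change was 2.40 (SE 0.72, 95% interval 0.67 to 4.14, adjusted p = 0.0486). A 2-sided exact permutation test of the summed CPM gave p = 0.114, where 4 against 3 libraries allow no p below 0.0571. The edgeR call was lost on leaving out any library other than CDH11-/- library 4. With Serpina1f added to the sum, values were 172, 67.8, 114 and 43.9 CPM in CDH11-/- libraries against 65.9, 42.1 and 81.3 CPM in CDH11+/+ libraries, and the log2 fold change was 0.66 (adjusted p = 0.369, exact permutation p = 0.343).

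**Figure D4:**
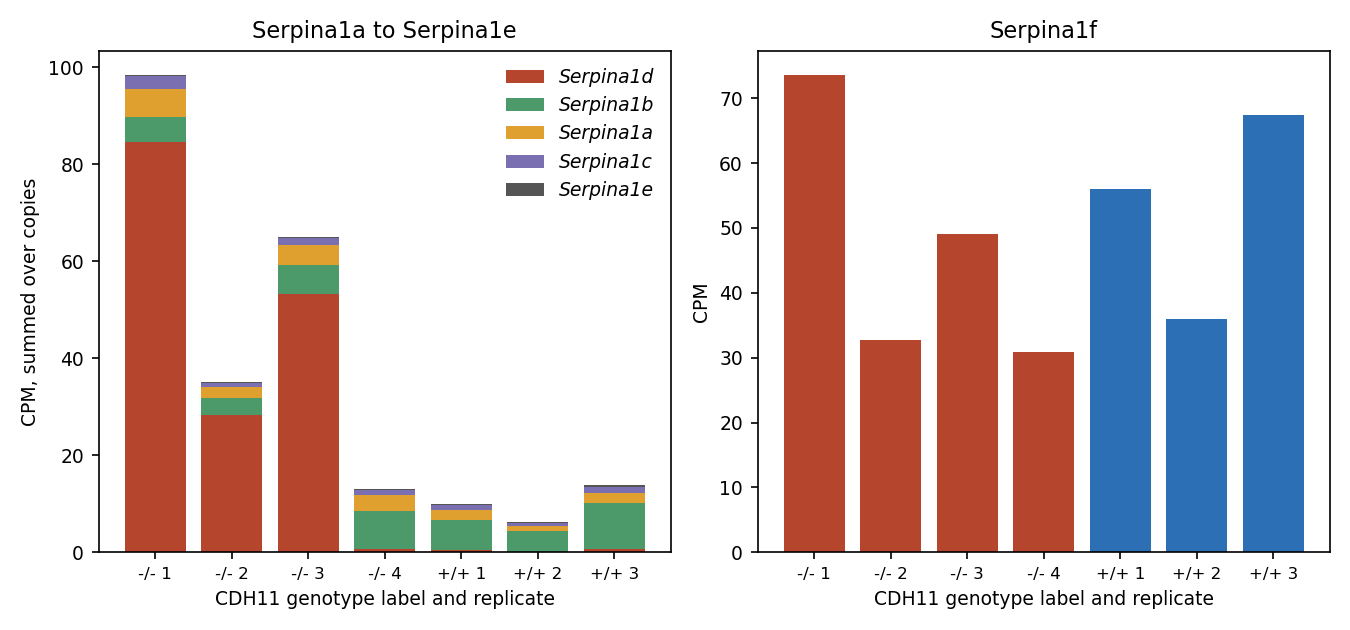
Left, CPM of Serpina1a to Serpina1e stacked for each library, CDH11-/- libraries first; right, CPM of Serpina1f, with CDH11-/- in red and CDH11+/+ in blue. Serpina1d fills most of the stack in CDH11-/- libraries 1, 2 and 3, while the other 4 copies together lie between 6.06 and 13.9 CPM in all 7 libraries.

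Serpina1d held most of the summed counts in 3 libraries. It took 85.9% (95% exact binomial interval 85.1 to 86.7%), 80.8% (79.2 to 82.3%), 81.9% (80.8 to 82.9%) and 4.88% (3.66 to 6.37%) of the counts of the 5 copies in CDH11-/- libraries 1 to 4, against 4.44% (3.04 to 6.25%), 1.52% (0.61 to 3.11%) and 4.40% (3.31 to 5.72%) in CDH11+/+ libraries 1 to 3. These intervals cover counting error only. The other 4 copies together had 13.9, 6.74, 11.8 and 12.5 CPM in CDH11-/- libraries, against 9.45, 6.06 and 13.3 CPM in CDH11+/+ libraries, and overlapped between the groups. A pseudogene that lies among the copies, Gm8893, picked out after its values were seen, had 0.37, 0.15, 0.22 and 0.038 CPM in CDH11-/- libraries, against 0.014, 0 and 0.023 CPM in CDH11+/+ libraries, so its 3 highest libraries were those of Serpina1d. It was called higher by edgeR (log2 fold change 3.77, adjusted p = 0.0168). Gm8893 (103817856 to 103822243) lies inside the annotated span of Serpina1b. Whether its reads came from the near copies was not tested. Hepatocytes are the main source of alpha-1-antitrypsin. Their markers summed to 24.5, 92.7, 49.2 and 45.7 CPM in CDH11-/- libraries 1 to 4, against 63.3, 71.3 and 99.6 CPM in CDH11+/+ libraries 1 to 3, and their part in the Serpina1d values was not tested.

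The promoters of the 5 copies are also alike, at 91.7 to 98.4% identity between pairs in the RefSeq stretches around their start sites (GRCm38.p6). The stretches of Serpina1d (chr12:103773584-103773883, minus strand) and Serpina1b (chr12:103738140-103738439, minus strand) are printed because these 2 genes had the highest and the second highest mean CPM of the 5 copies in the CDH11-/- libraries. Of these 2 only Serpina1d was called. The promoter of Serpina1a, which was also called higher, is not printed. Capitals mark the HNF1 half-site GTTAAT, searched on both strands as the only motif; HNF1 factors regulate many liver and kidney tubule genes.
Serpina1d: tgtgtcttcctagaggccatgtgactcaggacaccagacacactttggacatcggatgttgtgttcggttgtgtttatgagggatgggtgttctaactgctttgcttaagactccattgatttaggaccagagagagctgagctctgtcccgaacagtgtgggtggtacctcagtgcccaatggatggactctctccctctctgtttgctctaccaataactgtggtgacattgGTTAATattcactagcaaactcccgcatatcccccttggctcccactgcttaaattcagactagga
Serpina1b: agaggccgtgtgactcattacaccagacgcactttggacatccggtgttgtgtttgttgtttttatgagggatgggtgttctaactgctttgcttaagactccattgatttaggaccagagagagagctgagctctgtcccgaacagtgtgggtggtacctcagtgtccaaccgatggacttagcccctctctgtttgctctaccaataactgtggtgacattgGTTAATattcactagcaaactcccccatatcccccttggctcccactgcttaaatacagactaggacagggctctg
These letters were present in the promoter of each of the 5 copies. The promoters listed for Serpin genes also number 61 but belong to 52 of the members, some with several. The letters were present in 12 of these promoters, from 11 genes that include the 5 near copies. Among promoters of any gene they were present in 2332 of 32851 (7.10%). A match is a run of letters and does not show binding.

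The chromosome 12 cluster runs from Serpina10 at 103614786 to Serpina3n at 104414329 and holds 23 members. Within it CDH11-/- library 1 was at an extreme in more genes than Serpina1d, and other libraries were at an extreme in several genes too. Of the 14 tested members it had the lowest CPM of the 7 libraries in 6 (Serpina10, Serpina6, Serpina3a, Serpina3b, Serpina3f and Serpina3i) and the highest in 4 (Serpina1f, Serpina1d, Serpina1a and Serpina1c). Of the last 4, Serpina1d, Serpina1a and Serpina1c are near copies whose reads can be assigned to the wrong copy. CDH11+/+ library 2 was the lowest in Serpina1d, Serpina1a, Serpina1c, Serpina1e, Serpina3g and Serpina3n. CDH11+/+ library 3 was the highest in Serpina6, Serpina1b, Serpina1e, Serpina3f, Serpina3g, Serpina3i and Serpina3n. Shares over all tested genes were not computed for these CDH11+/+ libraries. Over all tested genes CDH11-/- library 1 was the lowest in 10.5%, and the share in which it was the highest was not computed. Among 35 tested protein-coding neighbours that are not serpins and lie on either side of the cluster, from Tc2n at 101645443 to Vrk1 at 106077426, it was the lowest in 5 and the highest in 0. The sharpest cases were Serpina3a and Serpina3b, with 0 counts in that library, where 3 counts would have been 0.035 CPM. In the other 6 libraries Serpina3a had 0.35 to 0.70 CPM and Serpina3b 0.35 to 0.95 CPM. The transcribed pseudogene Serpina3h had 1, 37, 67 and 144 counts in the CDH11-/- libraries, against 113, 55 and 157 in the CDH11+/+ libraries.

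**Figure D5:**
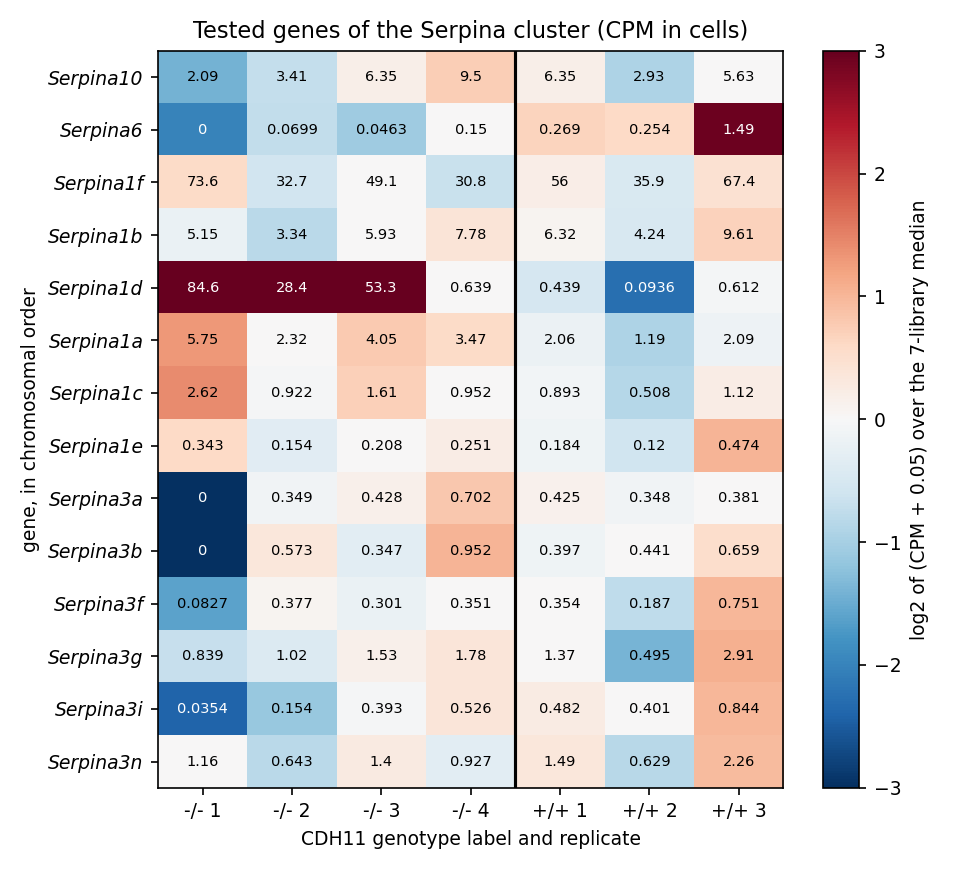
CPM of the 14 tested genes of the Serpina cluster, from top to bottom in chromosomal order, in CDH11-/- libraries 1 to 4 (left of the line) and CDH11+/+ libraries 1 to 3 (right). Numbers are CPM, and colours give log2 of CPM plus a small constant relative to the median of the 7 libraries, capped at 3 in either direction. CDH11-/- library 1 is the darkest blue for Serpina3a and Serpina3b, both at 0, and dark red for Serpina1d at 84.6 CPM.

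The Serpina3 copies are the mouse relatives of human alpha-1-antichymotrypsin, an acute-phase inhibitor of cathepsin G. None of the 6 tested was called, and their log2 fold changes ran from -0.06 for Serpina3a to -1.05 for Serpina3i (95% interval -2.57 to 0.46). Serpina3n, a known marker of inflammation in other tissues, had 1.16, 0.64, 1.40 and 0.93 CPM in CDH11-/- libraries 1 to 4, against 1.49, 0.63 and 2.26 CPM in CDH11+/+ libraries 1 to 3 (-0.50, adjusted p = 0.396). The 10 Serpina3 members summed to 2.17, 3.12, 4.41 and 5.28 CPM in CDH11-/- libraries, against 4.52, 2.50 and 7.81 CPM in CDH11+/+ libraries. The groups overlapped (-0.40, SE 0.42, adjusted p = 0.511).

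Serpina6, which encodes corticosteroid-binding globulin, a hormone carrier without inhibitory activity, was lower in the CDH11-/- libraries at very low levels. The gene (ENSMUSG00000060807) lies on the minus strand of chromosome 12 from 103646630 to 103657212. Its counts were 0, 5, 4 and 12 in CDH11-/- libraries 1 to 4, against 19, 19 and 129 in CDH11+/+ libraries 1 to 3. These were 0, 0.070, 0.046 and 0.15 CPM in the CDH11-/- libraries and 0.27, 0.25 and 1.49 CPM in the CDH11+/+ libraries. CDH11+/+ library 3 stood well above the other two. The log2 fold change was -3.34 (SE 0.92, adjusted p = 0.0276), and the call was kept in 12 of the 16 alternatives that gave a value. Among the losses, the log2 fold change without CDH11+/+ library 3 was -1.98 (adjusted p = 0.0914). The call was also lost without CDH11-/- library 2 (0.0702) or 3 (0.0783).

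The intracellular serpins of clade B, which protect cells from proteases released inside them or by leukocytes, were lower where they were called. Of the 5 tested members 4 were lower, namely Serpinb6a, Serpinb6b, Serpinb8 and Serpinb9, where 12.9% of all tested genes were called lower. Serpinb9 (ENSMUSG00000045827, chromosome 13, 33003250 to 33017957, plus strand), an inhibitor of granzyme B, had 14.02, 13.4, 11.99 and 13.4 CPM in CDH11-/- libraries 1 to 4, against 20.8, 17.6 and 20.9 CPM in CDH11+/+ libraries 1 to 3. The groups were well separated, with a log2 fold change of -0.58 (SE 0.087, adjusted p = 0.0014). The 7 Serpinb9 members summed gave the same size (-0.58, adjusted p = 0.0014), since the other 6 added few counts.

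Serpinb6b (ENSMUSG00000042842, chromosome 13, 32965209 to 32979067, plus strand) had 5.57, 4.97, 4.198 and 5.43 CPM in CDH11-/- libraries 1 to 4, against 9.60, 8.37 and 10.7 CPM in CDH11+/+ libraries 1 to 3. It was the clade B gene with the largest fall, at -0.92 (SE 0.13, adjusted p = 0.000904). Its relative Serpinb6a (ENSMUSG00000060147, chromosome 13, 33917918 to 34002794, minus strand) had 13.2, 12.4, 12.8 and 13.1 CPM in CDH11-/- libraries, against 17.0, 13.7 and 16.7 CPM in CDH11+/+ libraries. The human relative of both, SERPINB6, inhibits cathepsin G. The Serpinb6a difference was small, at -0.30 (SE 0.086, adjusted p = 0.0291), and the call was kept in 10 of 17 alternatives. Among the losses were the fits without CDH11-/- library 2, 3 or 4 (adjusted p = 0.0656, 0.0695 and 0.0524) and without CDH11+/+ library 1 or 3 (0.105 and 0.0707). The 5 Serpinb6 members summed to 18.8, 17.4, 17.0 and 18.6 CPM in CDH11-/- libraries, against 26.6, 22.1 and 27.5 CPM in CDH11+/+ libraries (-0.50, SE 0.085, adjusted p = 0.0026), without overlap.

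Serpinb8 (ENSMUSG00000026315, chromosome 1, 107590006 to 107610484, plus strand), whose human counterpart inhibits furin, had 8.70, 8.12, 7.23 and 7.14 CPM in CDH11-/- libraries 1 to 4, against 15.8, 15.7 and 10.7 CPM in CDH11+/+ libraries 1 to 3. CDH11+/+ library 3 was nearest to the CDH11-/- group but did not reach it. The log2 fold change was -0.85 (SE 0.14, adjusted p = 0.0026). It was the only tested member of the chromosome 1 cluster, whose other 10 members had few or no counts. Serpinb1a, an inhibitor of neutrophil elastase, cathepsin G and proteinase 3, was the clade B member that was not called, with means of 8.83 ± 0.89 CPM (SD, n = 4) in CDH11-/- and 9.16 ± 0.74 CPM (SD, n = 3) in CDH11+/+ libraries and a log2 fold change of -0.05 (95% interval -0.29 to 0.18).

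The leukocyte proteases that several of these serpins inhibit were barely present. None of the 11 listed genes, among them those of neutrophil elastase and the granzymes, passed the filter, 4 were at 0 in all libraries, and none had more than 15 counts in a library. Neutrophil markers were low as well, at 0.78 to 2.81 CPM in the CDH11-/- group and 2.97 to 7.31 CPM in the CDH11+/+ group. Of 5 tested, 0 were called higher and 4 lower, where the shares over all tested genes were 16.8% and 12.9%. Lymphocyte markers summed to 2.65 to 3.37 CPM in CDH11-/- libraries against 1.34 to 5.10 CPM in CDH11+/+ libraries (0 called of 8), and macrophage markers to 68.2 to 91.4 CPM in CDH11-/- libraries against 40.1 to 92.0 CPM in CDH11+/+ libraries (1 higher and 0 lower of 9). The clade B falls went with lower neutrophil, endothelial and podocyte marker sums and with higher proximal tubule marker sums. Mast cell markers summed to 11.3 to 12.59 CPM in CDH11-/- libraries against 12.60 to 20.8 CPM in CDH11+/+ libraries, with almost no gap. Of the 2 tested, 0 were called higher and 1 lower. Their median log2 fold change was positive, at 0.16, so the 2 did not share a direction. The mast cell markers that were not tested had at most 4 counts in a library. The part of any of these markers in the clade B falls was not tested.

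Serpinh1, which encodes HSP47, a collagen chaperone of the endoplasmic reticulum with no inhibitory activity, was lower. The gene (ENSMUSG00000070436, chromosome 7, 99345376 to 99353239, minus strand) had 79.4, 66.6, 58.4 and 66.4 CPM in CDH11-/- libraries 1 to 4, against 112, 100 and 112 CPM in CDH11+/+ libraries 1 to 3. The highest CDH11-/- library stayed below the lowest CDH11+/+ library. The means were 67.7 ± 8.67 CPM in CDH11-/- (SD, n = 4) and 108 ± 6.87 CPM in CDH11+/+ libraries (SD, n = 3), a log2 fold change of -0.67 (SE 0.098, 95% interval -0.89 to -0.45, adjusted p = 0.0013). Serpinh1, Serpinb6b, Serpinb8 and Serpinb9 were each called in 17 of 17 alternatives.

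None of the collagen chains that HSP47 folds was called lower. Of 13 listed chains and KDEL receptors, which return HSP47 to the endoplasmic reticulum, all were tested, 5 were called higher and 0 lower, with a median log2 fold change of 0.32. Among all tested genes 16.8% were called higher and 12.9% lower. Col4a3, a chain of the mature glomerular basement membrane, had 297, 323, 326 and 354 CPM in the CDH11-/- libraries, against 238, 195 and 192 CPM in the CDH11+/+ libraries (0.64, adjusted p = 0.0014). Its partner chains Col4a4 (0.39, adjusted p = 0.0035) and Col4a5 (0.30, adjusted p = 0.0095) were also higher. Col3a1, a fibrillar collagen chain, had 85.5, 68.3, 81.4 and 64.5 CPM in CDH11-/- libraries, against 31.1, 13.7 and 40.2 CPM in CDH11+/+ libraries (1.40, adjusted p = 0.0262). The count of called genes in this list was 3 without CDH11-/- library 1 or 3 or CDH11+/+ library 1, and 8 without CDH11+/+ library 3. Fibroblast and mural cell markers summed to 247 to 294 CPM in the CDH11-/- group and 244 to 352 CPM in the CDH11+/+ group, with 1 higher and 2 lower of 8. The endothelial and podocyte marker sums given above were lower in the CDH11-/- libraries without overlap, as Serpinh1 was. The part of any of these markers in the Serpinh1 and collagen results was not tested.

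Serping1, the C1 inhibitor of complement and of the contact system, had 33.7, 26.2, 34.5 and 27.9 CPM in CDH11-/- libraries 1 to 4, against 36.1, 24.1 and 47.3 CPM in CDH11+/+ libraries 1 to 3. The CDH11-/- values lay within the CDH11+/+ range, and the log2 fold change was -0.23 (95% interval -0.73 to 0.27, adjusted p = 0.463). None of the 4 listed complement proteases it can inhibit was called (median -0.087). C1s1 had a log2 fold change of -0.10 (adjusted p = 0.690) and C1ra of -0.10 (adjusted p = 0.788). Agt, which encodes angiotensinogen, a serpin by sequence under another symbol and the precursor of angiotensin II, had 30.8, 25.6, 34.4 and 38.03 CPM in CDH11-/- libraries, against 39.2, 34.0 and 37.5 CPM in CDH11+/+ libraries (-0.20, adjusted p = 0.269).

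Serine proteases of epithelia moved in both directions. Of 8 listed, all were tested, 3 were called higher and 4 lower, with a median of -0.26. Among all tested genes 29.7% were called. Htra1, a secreted protease of extracellular matrix proteins, had 85.8, 89.8, 96.7 and 91.7 CPM in CDH11-/- libraries 1 to 4, against 51.6, 53.2 and 56.2 CPM in CDH11+/+ libraries 1 to 3 (0.76, adjusted p = 8.83e-05). Hpn, which encodes hepsin (0.56, adjusted p = 0.0013), and Prss8, which encodes prostasin, an activator of the epithelial sodium channel (0.56, adjusted p = 0.0021), were higher. St14, which encodes matriptase, was lower, at 38.9 to 50.6 CPM in CDH11-/- libraries against 65.8 to 68.9 CPM in CDH11+/+ libraries (-0.54, adjusted p = 0.0026). Without CDH11-/- library 2 or 3 or CDH11+/+ library 1, 4 genes of this list were called.

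Of 7 cysteine cathepsins, lysosomal proteases that some serpins also bind, 4 were called higher and 1 lower, with a median of 0.23. Among all tested genes 29.7% were called. Ctsh had 93.3, 98.6, 100.3 and 91.6 CPM in the CDH11-/- libraries, against 57.5, 56.6 and 60.1 CPM in the CDH11+/+ libraries (0.72, adjusted p = 8.38e-05). Ctsc, which encodes the activator of neutrophil serine proteases, was lower (-0.37, adjusted p = 0.0199). Ctsb (0.23, adjusted p = 0.0209) and Ctsl (0.28, adjusted p = 0.0296) were higher by small amounts. The count of called cathepsins was 2 without CDH11-/- library 2, 3 without CDH11+/+ library 2, and 1 without CDH11-/- library 3 or CDH11+/+ library 1.

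Among 20 protease inhibitors outside the serpin family, 18 were tested, 5 were called higher and 2 lower, with a median of 0.006. The share called among all tested genes was 29.7%. Pzp, a broad protease inhibitor of the alpha-2-macroglobulin type, had 88.4, 129, 100.1 and 115 CPM in CDH11-/- libraries 1 to 4, against 23.1, 34.4 and 25.4 CPM in CDH11+/+ libraries 1 to 3 (1.97, SE 0.18, adjusted p = 0.000227). Every CDH11-/- library was above every CDH11+/+ library. Wfdc2 had 57.4, 41.3, 34.3 and 42.6 CPM in CDH11-/- libraries, against 99.9, 120 and 85.7 CPM in CDH11+/+ libraries (-1.21, adjusted p = 0.0021). Spink1, a trypsin inhibitor, was higher (0.76, adjusted p = 0.0023), and Wfdc15b was lower (-0.65, adjusted p = 0.0028). Without CDH11+/+ library 1 or 2, 4 genes of this list were called.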

How the data were processed

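Per the labels' protocols, total RNA of flash-frozen kidneys was extracted with Trizol and a column kit, and a NEBNext Ultra II directional kit was used for the libraries. The authors' deposited expected counts are estimated reads per gene, given as whole numbers. Their deposited normalized values (a signal with gene-specific factors of unstated origin) entered only as an alternative. DRAGEN, DESeq2 and mm10 are named, without versions, in the submitters' processing notes; the strand setting and the annotation release are not given in the sources used here. Replicate numbers follow deposit order and pair nothing.

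Symbols, biotypes and positions came from GENCODE M21 (42170 of 42256 identifiers matched). Counts were tested with edgeR 4.0.16 in R 4.3.3 (robust quasi-likelihood, filterByExpr, TMM, 2-sided, Benjamini-Hochberg adjustment over 17964 genes, adjusted p under 0.05). The biological coefficient of variation was 15.2%. CPM used TMM-scaled library sizes. The SE is the log2 fold change over the root of F, and 95% intervals are t intervals made apart from the test. Members, lists and tests were chosen with earlier results of these data known. All members are counted, though 1 tested member is not reported by name here; library values are given for those called or averaging at least 10 CPM, and up to 4 called genes are named per list. All 21 library pairs differed beyond sampling noise (median chi-square per gene 2.52 to 10.9). Alternatives were DESeq2 1.42.0, limma 3.58.1 (voom, and trend on log2 of the normalized value plus 1), other scalings, filters and thresholds, and leaving out each library. Fits with the factors as offsets, on protein-coding genes only, and of the sum with Serpina1f were added after seeing the data. The edgeR step was tested on simulated data.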

Additional observations from a re-analysis of the deposited data

How the results depend on the processing

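Serpinf2, Serpinh1, Serpinb6b, Serpinb8 and Serpinb9 kept their direction and their call in every alternative that gave a value. At an adjusted p under 0.01, 2784 genes were called in all, with 1 Serpin gene higher, 4 epithelial proteases, 1 cathepsin, 3 collagen chains or KDEL receptors and 4 other inhibitors, and the Serpina1 sum (2.40) was not called. The complement list had 1 call with limma-voom, limma-trend and gene-specific offsets, and the collagen list 3 without a filter and 8 with limma-voom. The Serpina1 sum lost its call with relative log expression scaling (2.39, adjusted p = 0.0503), without a filter (2.40, 0.114), with limma-trend (2.14, 0.0661) and with Serpina1f added (0.66, 0.369). Genes not called changed sign: Serpina10 (-0.19), Serpina1e (0.10) and Serpini1 (0.061) with limma-trend, and Serpina1e (0.22) and Serpina3g (0.16) with limma-voom. The causes were not tested. Leaving out each library in turn gave 1 to 3 Serpin genes higher, 4 to 8 lower, 4 to 7 epithelial proteases, 1 to 5 cathepsins, 3 to 8 collagen chains or KDEL receptors, 4 to 7 other inhibitors, and 1.92 to 2.73 for the Serpina1 sum. Signs changed within these ranges: Serpina3 sum -0.72 to 0.084, Serpina10 -0.33 to 0.37, Serpina1b -0.52 to 0.065, Serpina1e -0.47 to 0.64, Serpina1f -0.50 to 0.011, Serpina3a -0.57 to 0.36, Serpina3b -0.72 to 0.31, Serpina3f -1.01 to 0.023, Serpina3g -0.74 to 0.46, Serpinb1a -0.12 to 0.0096, Serpinf1 -0.19 to 0.33, Serping1 -0.45 to 0.015 and Serpini1 -0.46 to 0.13. Over all tested Serpin genes, 424 of 480 alternative values kept direction and side of the threshold, 28 fell short of it, 5 newly passed it and 23 changed sign. No paired analysis was possible because replicate numbers follow the order of deposit. The 34 members that did not pass the filter had at most 12 counts in a library and were not compared.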
